A study of Mus musculus with 4 samples.

Results

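A group of 10 genes of programmed axon degeneration and NAD metabolism was read out in mouse retinal ganglion cells, which send their axons through the optic nerve to the brain. They are Sarm1, Nmnat1, Nmnat2, Nmnat3, Nampt, Nadk, Nadk2, Nadsyn1, Mycbp2 and Parp1, taken by symbol from a count table of 78334 Ensembl identifiers, and all 10 were found and passed the filter on low counts, which kept 11427 genes. The cells came from wild-type mice of both sexes, 8 to 12 weeks old, whose eyes were injected with an adeno-associated virus of serotype 2 at 8 weeks of age and whose optic nerve was crushed 2 weeks later. Both groups therefore carry the crush and a virus with an mCherry reporter, and they differ in the hairpin. One virus expressed an shRNA against the microRNA miR-132-3p (anti-miR132-3p shRNA) and the other a scramble shRNA. Cells were collected 2 weeks after the crush, from 10 pooled retinas per condition, by panning on Thy1 and sorting for mCherry, with about 5000 cells for each of 2 libraries per group. No uninjured or uninjected group was analysed here. Count columns that carry only the reporter's name were taken as the scramble group by exclusion, and every direction given here rests on that. The comparison asks which of these transcripts differ when miR-132-3p is targeted in injured ganglion cells.

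SARM1 is an enzyme that cleaves NAD, and its activation drives the breakdown of an injured axon. It is held in check by NMNAT2, a short-lived axonal enzyme that turns nicotinamide mononucleotide into NAD and that must be resupplied from the cell body. MYCBP2 is a large ubiquitin ligase that removes NMNAT2. In the optic nerve, loss of SARM1 or a stable NMNAT is known to delay degeneration of the axon.

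The mature microRNA that the hairpin targets is printed first, 5′ to 3′, from RefSeq (GRCm38.p6, chromosome 11), with its seed, bases 2 to 8, in capitals. Below it stand the matches to that seed found in the longest annotated 3′ UTR of each of the 10 genes (GENCODE M21, transcript strand, DNA letters), with the matched bases in capitals. They are shown because they are the places in these transcripts where pairing with the seed is possible on paper.
miR-132-3p: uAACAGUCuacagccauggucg
Sarm1: gactgaggcaaaccaGACTGTTc
Nmnat2: ctctgtcttcatcttGACTGTTc
Nmnat3: gtaaaacagatgcctGACTGTTt
Mycbp2: ctggtttctttcctaGACTGTTA

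The motif searched was GACTGTT, called an 8mer where an A follows it. Of the 10 genes, 4 hold it, each 1 time: Sarm1 at base 99 of 2573 of its 3′ UTR, Nmnat2 at base 289 of 3682, Nmnat3 at base 893 of 993, and Mycbp2, with the 8mer, at base 446 of 709. Of 10405 tested genes with an annotated 3′ UTR, 14.7% hold at least 1 match. A match is a string of letters and no measure of repression. The folds of the 4 genes, given below, lie on both sides of 1: 2.18 for Sarm1, 1.23 for Nmnat2, 1.00 for Mycbp2 and 0.436 for Nmnat3.

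Library totals were 1731199 to 1846637 counts. Within a group, the pair of libraries agreed within sampling noise (chi-square per degree of freedom 1.02 and 1.00, against 4.01 to 4.03 across groups), so each pair was counted as 1 sample and each group has n = 1. There is thus no SD, and nothing here has a replicate check. Values are counts per library and CPM (counts divided by the TMM-scaled library total, times 1000000), and a fold is the ratio of summed CPM, anti-miR132-3p over scramble, with an exact 95% Clopper-Pearson interval that covers counting error only. An adjusted p is from edgeR's quasi-likelihood test with Benjamini-Hochberg adjustment over all 11427 genes. Such a p compares these libraries' reads and does not test the conditions. In bulk RNA, fewer cells of a type and less RNA per cell cannot be told apart.

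Sarm1 and Nadk were called higher with the anti-miR132-3p shRNA, and no member was called lower. Sarm1, the executor of axon degeneration, was 2.18-fold higher, and Nadk, the cytosolic NAD kinase that makes NADP, was 1.57-fold higher. Among all genes tested, 13.5% were called higher and 10.3% lower, 23.8% in all, so 2 of 10 members is a share near the background. Calls depend on depth: 13.8% of tested genes with under 100 counts were called, 18.4% with 100 or more but under 500, and 40.4% with 500 or more, and the members number 4, 4 and 2 in these classes. At an unadjusted p under 0.05 the count of members was 5 of 10, against 36.3% of all genes tested. The 4 libraries did not overlap between groups for 6 of the 10 genes, 4 of them higher and 2 lower. This too is near the background, in which 61.8% of genes tested did not overlap, 31.3% of them higher and 30.6% lower as shares of all tested.

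Sarm1 (ENSMUSG00000050132.14, chromosome 11) had 13 and 12 counts in the scramble libraries and 28 and 24 in the anti-miR132-3p libraries. These were 7.12 and 6.55 CPM against 16.0 and 13.7 CPM, so that both libraries of one group lay above both of the other. The fold was 2.18 (1.33 to 3.66), the log2 fold change in edgeR's quasi-likelihood fit 1.12 and the adjusted p 0.0153. Of all genes tested, 3.25% had a log2 fold change at least as high. Sarm1 transcripts are rich in GC, at 57.5% in the longest one, above 91% of genes tested, and log2 fold changes in these libraries were higher for GC-rich and long transcripts (Spearman correlation across 11273 genes 0.25 and 0.26; genes are not independent replicates). With a correction for both, the log2 fold change of Sarm1 was 0.76 and its adjusted p 0.10 in edgeR's quasi-likelihood test, which ended the call. Leaving out any 1 library also ended it (log2 fold change 1.00 to 1.22, adjusted p 0.0805 to 0.19 from edgeR).

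**Figure D1:**
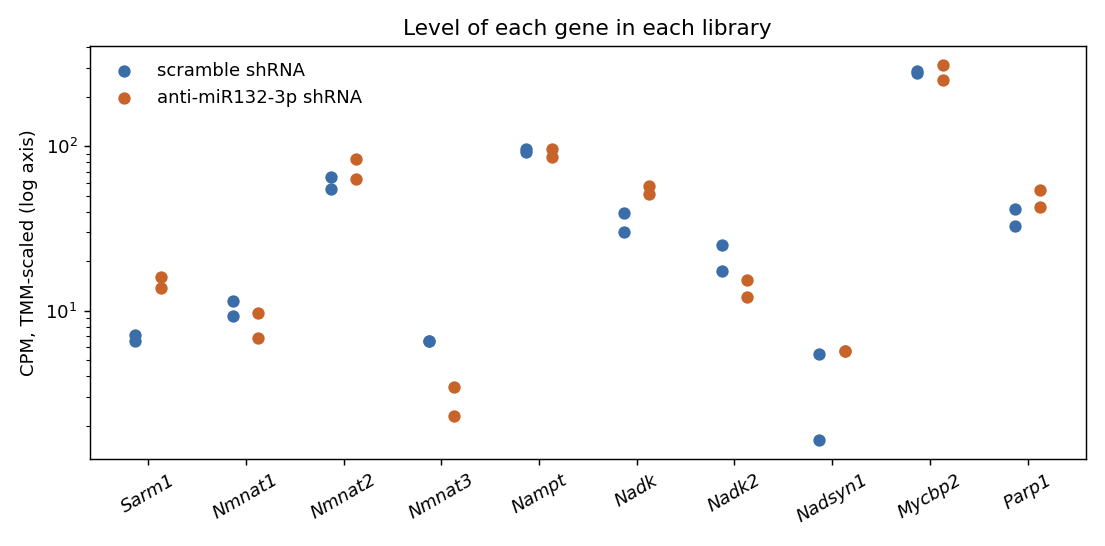
Level of each of the 10 genes in each library, in TMM-scaled CPM on a log axis; each point is 1 library, blue for the scramble and orange for the anti-miR132-3p shRNA. The Sarm1 points lie at 6.55 to 7.12 CPM and at 13.7 to 16.0 CPM, whereas the points of the groups overlap for Nmnat1, Nmnat2, Nampt and Mycbp2.

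The 3 NMNAT enzymes make the same last step of NAD synthesis in different places: NMNAT1 in the nucleus, NMNAT2 at the Golgi and in axons, NMNAT3 in mitochondria. None of the 3 was called. Nmnat2 had 118 and 101 scramble counts against 146 and 111. In CPM these were 64.6 and 55.1 against 83.5 and 63.6, so the groups overlapped. The fold was 1.23 (1.02 to 1.48) and the adjusted p from edgeR 0.15. A rise of over 1.48-fold, or a drop, lies outside this counting interval.

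Nmnat3 was the lowest of the 10 genes by fold. It had 12 counts in each scramble library and 6 and 4 in the anti-miR132-3p libraries, which is 6.57 and 6.55 CPM against 3.43 and 2.29 CPM. The groups did not overlap. The fold was 0.436 (0.186 to 0.947), but the adjusted p from edgeR was 0.0591, short of the threshold of 0.05. Of all genes tested, 0.56% had a log2 fold change as low or lower, and the value rests on sums of 24 and 10 counts.

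Nmnat1 had 21 and 17 scramble counts against 12 and 17, or 11.5 and 9.28 CPM against 6.86 and 9.74 CPM. The fold was 0.799 (0.475 to 1.33) and the adjusted p from edgeR 0.52. The libraries of the groups overlapped, and the interval holds values on both sides of 1.

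Nampt, Nadsyn1, Nadk and Nadk2 supply NAD and its phosphate. NAMPT is the rate-limiting enzyme of salvage from nicotinamide. Its gene had 169 and 175 counts against 150 and 167, or 92.5 and 95.5 CPM against 85.8 and 95.6 CPM, and the groups overlapped. The fold of 0.965 (0.826 to 1.13) bounds any difference in these libraries to within 1.21-fold lower and 1.13-fold higher as far as counting error goes.

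NADSYN1 makes the last step of the routes from nicotinic acid and tryptophan. Its gene had 3 and 10 scramble counts against 10 in each anti-miR132-3p library, or 1.64 and 5.46 CPM against 5.72 and 5.73 CPM. The groups did not overlap in CPM, but only through library scaling, since scramble replicate 2 and the anti-miR132-3p libraries had 10 counts each. The fold was 1.61 (0.763 to 3.52), with an adjusted p from edgeR of 0.33. The log2 fold change, 0.68, was 0.07 without scramble replicate 1 and 1.76 without scramble replicate 2. At sums of 13 and 20 counts, no difference was detectable at this depth.

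Of the kinases that turn NAD into NADP, the cytosolic one was called and the mitochondrial one was not. Nadk (ENSMUSG00000029063.17, chromosome 4) had 55 and 72 scramble counts against 100 and 90. In CPM these were 30.1 and 39.3 against 57.2 and 51.5, with no overlap. The fold was 1.57 (1.24 to 1.98), the log2 fold change 0.65 and the adjusted p from edgeR 0.00935. With the GC and length correction the log2 fold change was 0.53 at an adjusted p of 0.0206 from edgeR, still past the threshold. Leaving out any 1 library ended the call (log2 fold change 0.47 to 0.85, adjusted p 0.0984 to 0.21 from edgeR).

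Nadk2 encodes the mitochondrial NAD kinase. It had 32 and 46 counts against 27 and 21, or 17.5 and 25.1 CPM against 15.4 and 12.0 CPM, with both anti-miR132-3p libraries below both scramble libraries. The fold was 0.644 (0.44 to 0.935), and the adjusted p from edgeR, 0.0986, missed the threshold. The count ratio of Nadk to Nadk2, which does not depend on how libraries are scaled, was 1.63 with the scramble and 3.96 with the anti-miR132-3p shRNA, with 2.43 (1.56 to 3.81) as the quotient of these ratios. That ratio was chosen after its values were seen and is not corrected for GC content or length.

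Mycbp2, the ubiquitin ligase, was the most heavily counted of the 10, with 521 and 507 counts against 440 and 546. The fold was 1.00 (0.919 to 1.10) and the adjusted p from edgeR 0.97. In CPM the scramble libraries were at 285 and 277 and lay between the anti-miR132-3p libraries at 252 and 313. The difference within the anti-miR132-3p pair had an unadjusted exact binomial p of 0.00073, and 0.07% of genes tested had one as small, but adjusted over all genes that p was 1. The direction of the Mycbp2 fold changed with the scaling, from 0.03 on the log2 scale with library totals to -0.01 with upper quartile scaling.

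Parp1 encodes the main nuclear poly(ADP-ribose) polymerase, which spends NAD on sites of DNA damage. It had 76 and 60 counts against 94 and 75, or 41.6 and 32.7 CPM against 53.8 and 43.0 CPM. The libraries of the groups did not overlap, by a narrow margin. The fold was 1.30 (1.03 to 1.64) and the adjusted p from edgeR 0.12. The log2 fold change in edgeR, 0.38, was 0.19 with the GC and length correction and 0.21 to 0.56 without 1 library. In the annotation its exons share 7 bases with Mir6904 on the same strand, which had 0 counts in all 4 libraries.

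**Figure D2:**
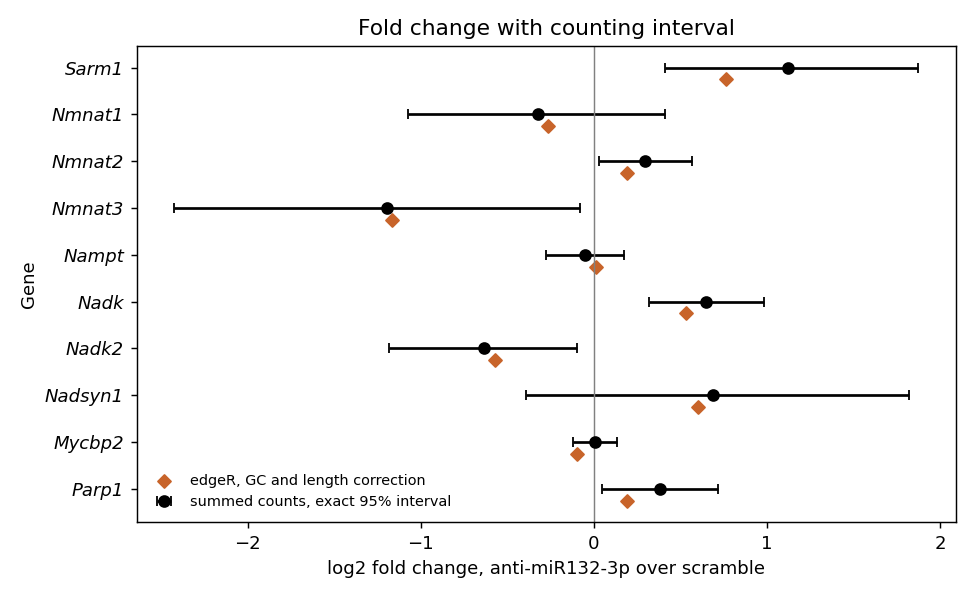
Log2 fold change of each gene, anti-miR132-3p over scramble. Black points are ratios of summed counts with exact 95% intervals for counting error, and orange diamonds the edgeR fit corrected for GC content and transcript length. The interval lies above 0 for Sarm1, Nmnat2, Nadk and Parp1 and below 0 for Nmnat3 and Nadk2, and the corrected value of Sarm1, at 0.76, is below its uncorrected 1.12.

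Levels between genes were compared per length, as CPM per kilobase of exon, with exact Poisson 95% intervals. With the scramble shRNA, Nampt was highest at 18.6 (16.7 to 20.7), followed by Mycbp2 at 14.6 (13.7 to 15.5), Nmnat2 at 10.4 (9.03 to 11.8) and Nadk at 9.26 (7.72 to 11.0). Parp1 was at 7.02, Nadk2 at 4.17 and Nmnat1 at 3.42. The lowest were Nmnat3 at 1.31, Sarm1 at 1.21 (0.785 to 1.79) and Nadsyn1 at 1.07. Of the 9 pairs of neighbours in this order, 4 could not be separated by an exact interval of their ratio: Nmnat2 and Nadk, Nadk2 and Nmnat1, Nmnat3 and Sarm1, and Sarm1 and Nadsyn1. Sarm1, the trigger of degeneration, was thus among the least abundant transcripts of the group and Nampt the most abundant in both groups.

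With the anti-miR132-3p shRNA the order per kilobase was Nampt at 17.9, Mycbp2 at 14.7, Nadk at 14.5, Nmnat2 at 12.7 and Parp1 at 9.14. Nmnat1 at 2.73, Nadk2 at 2.68 and Sarm1 at 2.64 (1.97 to 3.47) stood together. Nadsyn1 was at 1.73, and Nmnat3 was lowest at 0.572 (0.274 to 1.05). Here 5 of 9 neighbouring pairs could not be separated: Mycbp2 and Nadk, Nadk and Nmnat2, Nmnat1 and Nadk2, Nadk2 and Sarm1, and Sarm1 and Nadsyn1.

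**Figure D3:**
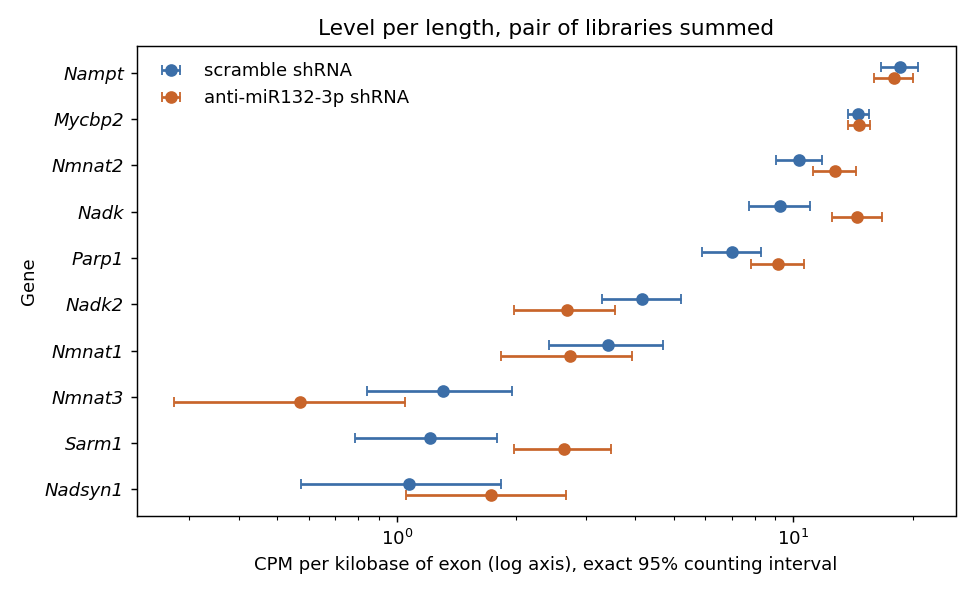
Level per length of each gene in CPM per kilobase of exon, on a log axis, for the summed libraries of each group; bars are exact 95% intervals for counting error. Genes are ordered by their scramble level, from Nampt at 18.6 to Nadsyn1 at 1.07.

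Nmnat2 was the main NMNAT transcript in these cells. Per length it made up 68.6% of the counts of the 3 genes in the scramble group and 79.4% in the anti-miR132-3p group. Nmnat1 made up 22.7% and 17.1%, and Nmnat3 8.69% and 3.57%.

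The balance of Sarm1 against each NMNAT gene was taken as a ratio of counts, which is free of library scaling. Against Nmnat2, the axonal enzyme that restrains SARM1, the count ratio was 0.114 with the scramble and 0.202 with the anti-miR132-3p shRNA. The ratio changed 1.77-fold (1.04 to 3.08). Against Nmnat1 it changed 2.71-fold (1.31 to 5.69), and against Nmnat3 4.91-fold (1.92 to 13.4). All 3 intervals lie above 1, and all 3 rest on the same Sarm1 sums of 25 and 52 counts. They are not adjusted for the 8 such ratios computed, cover counting error only, and say nothing of protein or enzyme activity. Nor are these ratios corrected for GC content or length. With that correction, the log2 fold change in edgeR was 0.76 for Sarm1 (1.12 without it) and 0.19 for Nmnat2 (0.30 without it). It was -0.27 for Nmnat1 (-0.32 without it) and -1.17 for Nmnat3 (-1.18 without it).

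The wider pathway was described with 4 lists of other genes, 83 in all, of which 57 were tested and 14 called, 8 higher and 6 lower. That is 24.6% of those tested, against 23.8% of all genes. When libraries were scaled by their totals, the split was 9 higher and 4 lower. The medians are set against a median log2 fold change of -0.0030 over all genes tested.

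Of 26 other genes of NAD synthesis and uptake, only 9 had enough counts to be tested, with 0 higher, 1 lower and a median log2 fold change of 0.02. The gene called lower was Naxd, which repairs damaged NADH and NADPH, at 46.4 against 64.8 CPM (fold 0.716, 0.582 to 0.878, adjusted p from edgeR 0.0242). Slc25a51, the carrier that brings NAD into mitochondria, had 86 and 120 counts against 83 and 126, a fold of 1.06 (0.872 to 1.29). Nmrk1, a nicotinamide riboside kinase, was at 18.9 against 15.9 CPM (fold 1.19, 0.825 to 1.73). Kynu, of the kynurenine route from tryptophan, was at 8.30 against 8.20 CPM (fold 1.01, 0.586 to 1.75).

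Other entry routes to NAD were at or near the floor. Naprt, the entry enzyme for nicotinic acid, had 3 counts with the scramble and 2 with the anti-miR132-3p shRNA. Nmrk2 had 7 and 5, and Qprt, the enzyme that links the kynurenine route to NAD, had 0 and 1. A count of 3, the most that a count of 0 allows, corresponds to 1.64 to 1.72 CPM in 1 library. In this list, 7 genes had 0 counts in all 4 libraries.

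Among NAD glycohydrolases and sirtuins, Cd38 and Bst1, the glycohydrolases of leukocytes and stroma, had 0 counts in all 4 libraries. All 7 sirtuins, the NAD-dependent deacylases, had negative log2 fold changes, with a median of -0.25, and 0 were called by edgeR. Of all 11427 genes tested, 5764 had a negative log2 fold change. The shared sign of the sirtuins was not tested, and genes are not independent replicates. At an unadjusted p under 0.05 there was 1, Sirt3, a mitochondrial deacylase named after its values were seen, at 71.0 against 87.7 CPM (fold 0.809, 0.683 to 0.958, adjusted p from edgeR 0.0588). With the GC and length correction, and with upper quartile scaling, 1 sirtuin was called lower. Sirt1, a nuclear deacylase, was at 10.3 against 12.3 CPM (fold 0.838, 0.525 to 1.33).

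Of 24 other PARPs and enzymes that remove ADP-ribose, 20 were tested. Their median was -0.07, and 3 were called higher and 2 lower, or 2 and 0 with scaling by library totals. Parp12 was at 11.4 against 5.74 CPM (fold 1.99, 1.15 to 3.56, adjusted p from edgeR 0.0414). Adprhl2, a hydrolase that takes ADP-ribose off serine, was at 38.3 against 25.7 CPM (1.49, 1.14 to 1.96), and Parp6 at 125 against 95.1 CPM (1.31, 1.14 to 1.52). Lower were Zc3hav1, an antiviral zinc finger protein, at 57.2 against 74.6 CPM (0.767, 0.636 to 0.924), and Nudt9, an ADP-ribose pyrophosphatase, at 48.4 against 63.9 CPM (0.756, 0.617 to 0.926). Interferon is known to induce 6 genes of this list, and of the 4 of them tested, 1 was called higher, Parp12, and 1 lower, Zc3hav1. Over all genes tested, 13.5% were called higher and 10.3% lower. Parp9, another of the 6, with 6 and 6 counts against 11 and 15 (fold 2.27, 1.11 to 4.94), missed the threshold at an adjusted p from edgeR of 0.0514. Parp11, the other one tested, was not called, at 51.8 against 41.3 CPM (1.26, 1.01 to 1.57, adjusted p from edgeR 0.115). Parp10, with sums of 5 and 12 counts (2.51, 0.824 to 9.11), and Parp14, with 4 and 11 (2.88, 0.853 to 12.4), were too low to be tested. Parp9, Parp10, Parp11 and Parp14 were named after their values were seen. Parp2, the closest relative of Parp1, was at 87.6 against 104 CPM (0.845, 0.725 to 0.985) with an adjusted p from edgeR of 0.14.

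Of 24 partners in axon degeneration, 21 were tested. Their median was 0.08, and 5 were called higher and 3 lower. With scaling by library totals these were 7 and 3, and with the GC and length correction 5 and 2. The shares over all genes tested were 13.5% higher and 10.3% lower. Of genes with 500 or more counts, 40.4% were called in either direction. The partners of MYCBP2 in its ligase were not called. Fbxo45, the substrate adaptor, was at 33.5 against 36.9 CPM (fold 0.907, 0.702 to 1.17), and Skp1a, which encodes SKP1, at 403 against 365 CPM (1.10, 1.02 to 1.19) with an adjusted p from edgeR of 0.0510. Zdhhc17, a palmitoyltransferase that acts on NMNAT2, was at 264 against 268 CPM (0.986, 0.90 to 1.08).

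Of the 7 listed genes of the kinase cascade that runs from DLK and its relative to JNK, a subgroup chosen after the values were seen, 3 were called higher, 0 lower and 4 not called, with 13.5% of all genes called higher. Map2k7, which activates JNK, was at 21.7 against 10.9 CPM (fold 1.99, 1.34 to 3.00), with 22 and 18 counts against 33 and 43. Mapk8, which encodes JNK1, was at 87.9 against 62.3 CPM (1.41, 1.18 to 1.68), and Mapk9, which encodes JNK2, at 202 against 157 CPM (1.29, 1.16 to 1.44). The adjusted p from edgeR was 0.0138, 0.00559 and 0.00289. Map3k12, which encodes the kinase DLK, was at 33.2 against 24.9 CPM (1.33, 1.01 to 1.78) with an adjusted p from edgeR of 0.13. Mapk10, which encodes the neuronal JNK3, was at 248 against 245 CPM (1.01, 0.92 to 1.11). Map3k13, which encodes the DLK relative LZK, was at 58.1 against 54.9 CPM (1.06, 0.866 to 1.29), and Map2k4, the other kinase that activates JNK, at 80.4 against 84.2 CPM (0.955, 0.81 to 1.13).

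The other 2 called higher were Scn8a, an axonal sodium channel, at 47.2 against 29.5 CPM (fold 1.60, 1.25 to 2.06), and Ube4b, a ubiquitin chain assembly factor whose first part is fused to NMNAT1 in the Wlds mouse, at 114 against 76.5 CPM (1.49, 1.27 to 1.74). Lower were Stmn2, an axonal tubulin-binding protein that is short-lived like NMNAT2, at 516 against 717 CPM (0.72, 0.677 to 0.764, adjusted p from edgeR 8.01e-07), Cast, the inhibitor of calpains, at 46.9 against 69.7 CPM (0.673, 0.55 to 0.823), and Peli1, a ubiquitin ligase of innate immune signalling, at 112 against 140 CPM (0.799, 0.699 to 0.914). Mapk9, Mapk10, Map3k13, Map2k4 and Peli1 were named after their values were seen. Of the 14 calls over the 4 lists, 10 remained with the GC and length correction; Parp12, Adprhl2, Map2k7 and Peli1 did not.

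**Figure D4:**
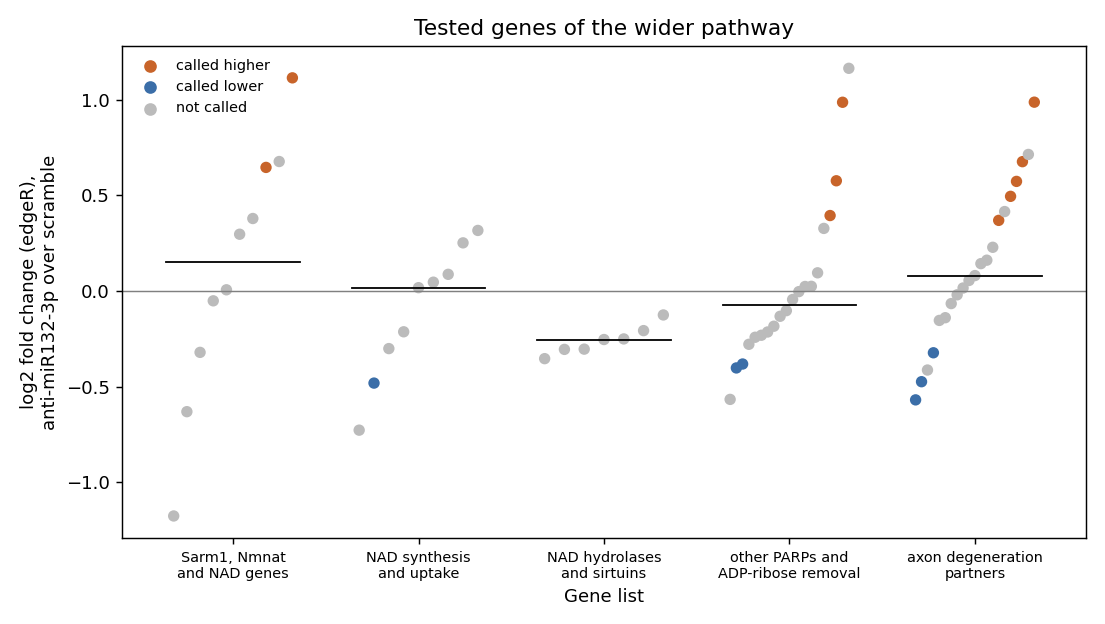
Log2 fold change from edgeR of each tested gene in the 10-gene group and in the 4 lists of the wider pathway, sorted within each list; orange points were called higher, blue lower and grey not called, and black lines are medians. The sirtuins all lie below 0, as do 5764 of all 11427 genes tested. The calls lie on both sides in the lists of PARPs and axon degeneration partners.

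The cells that gave these reads were checked by markers. The 14 ganglion cell markers were all counted and summed to 3083 to 3131 CPM per library, with 3 called higher, among them Thy1, and 3 lower, among them Pou4f1. The 8 Müller glia and astrocyte markers summed to 1217 and 1225 scramble CPM against 1766 and 1744 CPM. Dkk3 alone was at 1081 scramble CPM against 1596 CPM, and Apoe at 18.9 against 62.4 CPM. Of 6 tested, these 2 were called higher and 1, Slc1a2, lower. The other direction prevailed by number, with 4 of the 6 negative and a median log2 fold change of -0.31. The 14 microglia and leukocyte markers summed to 2.19 and 3.27 CPM against 56.6 and 61.3 CPM, of which Cd74 gave 36.1 CPM, and Trem2 and Itgam were at 0 in all libraries. The 8 rod markers summed to 104 and 92.2 CPM against 29.2 and 26.3 CPM, with 3 of 4 tested called lower, among them Sag at 35.8 against 0.572 CPM. The 8 amacrine markers summed to 2114 and 2148 CPM against 2331 and 2278 CPM. Pax6 gave most of each sum, at 1612 scramble CPM against 1587 CPM, and was not called (log2 fold change -0.02). Of 5 tested, 3 were called higher and 0 lower: Slc6a9 at 46.1 against 16.9 CPM (fold 2.72, 2.02 to 3.71), Gad2 at 514 against 373 CPM (1.38, 1.28 to 1.48) and Tfap2a at 153 against 124 CPM (1.23, 1.09 to 1.40). The 5 bipolar markers summed to 110 and 95.5 CPM against 120 and 111 CPM. The part of these in the values of Sarm1, Nadk and the other members was not tested. Gad1 and Slc32a1 of the amacrine list and Gnat1 of the rod list had 0 counts in every library although Gad2 and Sag were counted. A count of 0 in this table is therefore given as a count and not as absence of the transcript.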

How the data were processed

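The authors deposited 1 table of raw read counts, with whole numbers for each Ensembl gene in 4 libraries. Per the submitters' processing notes, the build was GRCm39 and the tools included HISAT2 2.2.1, Trimmomatic 0.39, SAMtools 1.10 and the Cufflinks suite. Which counter, annotation and strand option gave the counts is not given in the sources used here. Reads of overlapping or antisense genes therefore cannot be told apart. Columns named mCherry were taken as scramble because the other columns name miR132; both vectors carry mCherry, so every direction rests on this exclusion. The labels name no separate animals behind a group's libraries, and each pair of libraries agreed within sampling noise. The p-values therefore compare the reads of these libraries and measure no spread between animals.

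Symbols, exon lengths, GC content and 3′ UTRs came from GENCODE M21 (GRCm38), and no coordinates are printed since the build differs. Tests were run with edgeR 4.0.16 (filterByExpr, TMM, glmQLFit with legacy set to FALSE, glmQLFTest), limma 3.58.1 and DESeq2 1.42.0 under R 4.3.3; figures used Python 3.11.15 and matplotlib 3.10.9. The GC and length correction used splines with 4 degrees of freedom per library. The members and lists were chosen with earlier results of these data known. All 10 members were named, as were preset partners and, per list, up to 5 called genes with the largest log2 fold change. Lists hold no member. Alternatives covered scaling, filters, tests, assumed spread, GC and length, a replicate block and left-out libraries.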

Additional observations from a re-analysis of the deposited data

How the results depend on the processing

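With n = 1 per group after joining each pair, no setting measures the spread between animals. edgeR's quasi-likelihood test called 1539 genes higher and 1182 lower, 2 members higher and 0 lower, and 8 higher and 6 lower over the pathway lists. With no low-count filter it called 1 and 2 of all genes, 0 members, and 0 and 0 of the lists, with 3 members at an unadjusted p under 0.05 (22.2% of all genes). DESeq2's Wald test called 539 and 351 genes, 0 members (2 at an unadjusted p under 0.05, against 9.34% of all genes), and 1 and 1 of the lists. After summing each pair, a biological coefficient of variation set to 0.1 gave 470 and 56 genes, 0.2 gave 50 and 6, and 0.4 gave 13 and 1; each gave 0 members and 0 list genes, with 3, 1 and 0 members at an unadjusted p under 0.05 against 15.8%, 5.42% and 0.726% of all genes. The GC and length correction left 1 member, Nadk. Without 1 library, 0 to 413 of all genes were called higher and 0 to 198 lower, members 0 to 0 in each direction, and list genes 0 to 1 higher and 0 to 1 lower, with 0 of all genes whenever a scramble library was left out; 3 to 4 members then had an unadjusted p under 0.05 in edgeR, against 23.1% to 27.0% of all genes. The cause was not tested.

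The log2 fold change of Sarm1 lost its call with no filter (1.11), with DESeq2's Wald test (1.11), with the 3 assumed coefficients of variation (1.12), with the GC and length correction (0.76) and without 1 library (1.00 to 1.22). The count ratios of Sarm1 without 1 library were 2.13 to 3.50 for Nmnat1, 1.68 to 1.89 for Nmnat2 and 4.40 to 5.63 for Nmnat3. Only values near 0 changed sign. Nampt ranged from -0.132 to 0.0247 without 1 library, the positive value without anti-miR132-3p replicate 1, and was at 0.0113 with the GC and length correction. Mycbp2 was at -0.0121 with upper quartile scaling, -0.0059 with DESeq2's Wald test, -0.0020 with limma-voom, -0.0947 with the GC and length correction, and -0.159 to 0.154 without 1 library, negative without scramble replicate 2 or anti-miR132-3p replicate 2. The other 8 members kept their sign in each setting that gave a value; DESeq2 gave no adjusted p for Nmnat3 and Nadsyn1, and a minimum of 10 counts in every library removed both.

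The correlation of same-numbered deviations from the group means was 0.0126. Each pair of libraries agreed within sampling noise, so this value cannot show whether replicate numbers pair the samples. The replicate block called 2 members higher and 0 lower, 1740 and 1437 genes, with Sarm1 at 1.12.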
